A study of Mus musculus with 6 samples.

Results

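The genes described here are those named after the proteins of the cytosolic ribosome. They were taken as every row whose symbol is Rpl or Rps followed by a digit, together with Rplp0, Rplp1, Rplp2 and Rpsa, leaving out symbols that contain -ps and the Rps6ka, Rps6kb, Rps6kc and Rps6kl kinase genes. The rule found 92 of 48577 genes, 54 with a large subunit symbol and 37 with a small subunit symbol, and 1 further gene, Rps19bp1, whose name refers to a protein that binds a ribosomal protein. Of the 92, 77 are the standard genes of the ribosome (46 large, 31 small), called core genes below, and 14 are paralogs or copies such as Rpl22l1 and Rps27l. Among these copies, Rpl6l, Rps12l1, Rps3a2 and Rps3a3 are annotated as processed pseudogenes, and Rpl37rt and Rps4l as transcribed processed pseudogenes.

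RNA was sequenced from lungs of C57BL/6 mice carrying the Miwi2tdTomato reporter, in which the fluorescent protein tdTomato marks cells that express Piwil4, the gene of the Piwi protein MIWI2. Lung cells that lacked the leukocyte marker CD45 and carried the epithelial marker EpCAM were sorted into a tdTomato-negative and a tdTomato-positive fraction, and the labels call both multiciliated cells. Each of 3 mice gave 1 library of each fraction, so that there were 6 libraries, and all comparisons were made between the 2 fractions of the same mouse. The RNA was amplified before library preparation. All mice carried the reporter, the age and sex of the animals are not given in the sources used here, and neither is a gate for cilia.

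A ribosome has a small subunit, which reads the mRNA, and a large subunit, which joins amino acids, and nearly every ribosomal protein is present in a single copy per subunit. Cells therefore make these proteins in step, and much of that control acts on translation: most of their mRNAs begin with a tract of pyrimidines, the 5′ terminal oligopyrimidine or TOP motif, through which the kinase mTOR and the protein LARP1 regulate them. The family is also known for its many processed pseudogenes, whose sequence is close to that of the parent mRNA.

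The tract at the transcription start can be seen in the annotated promoters. RefSeq start sites on GRCm38.p6 were found for 67 members, 79 starts in all. An unbroken run of at least 8 C or T letters touched the 10 bases on either side of the start in 30 of them (38%), against 13.7% of the 32851 starts of all genes and 12.2% of 74 starts of genes for mitochondrial ribosomal proteins. The longest such run had a median length of 6 bases in members and 4 in all genes. The following 30-base windows, on the coding strand and with 15 bases on either side of the start, show named members with a long run and then named members with a short one; the longest run of C and T near the start is in capitals.
Rps6: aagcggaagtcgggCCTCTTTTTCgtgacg
Rplp2: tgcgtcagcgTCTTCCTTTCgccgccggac
Rps27: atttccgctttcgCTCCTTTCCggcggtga
Rps10: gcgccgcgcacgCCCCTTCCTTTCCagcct
Rps15: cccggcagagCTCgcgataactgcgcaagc
Rpl41: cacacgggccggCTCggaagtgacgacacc
Rps4x: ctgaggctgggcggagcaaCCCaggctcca
These windows lie at chr4:86857353-86857382 (minus strand) for Rps6, chr7:141447636-141447665 (plus) for Rplp2, chr3:90213634-90213663 (minus) for Rps27 and chr17:27635230-27635259 (minus) for Rps10. Those of the short-run group lie at chr10:80292416-80292445 (plus) for Rps15, chr10:128549154-128549183 (minus) for Rpl41 and chrX:102189377-102189406 (minus) for Rps4x. Start sites were not measured in these libraries, and annotations differ in where they place them, so a short run says only what these letters are at the RefSeq start. In the 300 bases from 250 before to 50 after the start, the motif CCGGAAG on either strand was found in 34.2% of member starts, 33.8% of mitochondrial ribosomal protein starts and 8.86% of all starts. Its reverse complement, CTTCCGG, can share letters with a pyrimidine run. The letters TATAAA, also searched on both strands, were in 8.86% of member starts and 13.6% of all starts.

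The libraries held 5330584 to 6326395 counts in genes, so that a gene with no read could be at up to 0.475 to 0.585 CPM (counts scaled to the library's size), which is what 3 counts are worth. This floor reflects counting error only. Where 3 values are given for a fraction, they are those of mice 1, 2 and 3 in this order. Piwil4 had 227, 156 and 234 reads in negative against 599, 605 and 701 reads in positive libraries of mice 1, 2 and 3, and tdTomato had reads in the positive libraries alone. Summed multiciliated cell markers were at 8381 to 9475 CPM across all 6 libraries, and 3 of 16 were called higher in the positive fraction. Markers of alveolar type 2 cells summed to 8001 to 9477 CPM in negative and 683 to 1310 CPM in positive libraries (11 of 14 called lower), and those of club cells to 5039 to 8663 and 8935 to 23052 CPM (8 of 13 called higher). Leukocyte markers summed to 24.2 to 135 and 26.4 to 50.5 CPM, basal cell markers to 10.1 to 17.5 and 1.01 to 2.06 CPM, those of endothelial cells to 9.94 to 13.4 and 10 to 28.7 CPM, with Cldn5 at 0 in every library, and those of alveolar type 1 cells to 91.4 to 141 and 56.8 to 159 CPM, with Pdpn at 0. Mesenchymal cell markers summed to 19.3 to 70.8 CPM in negative and 4.13 to 35.5 CPM in positive libraries, with 0 called. Erythroid cell markers summed to 21.1 to 55.1 and 2.70 to 26.9 CPM (1 of 5 called lower). Both sums were lower in the positive library of each mouse. Of the 11 leukocyte markers, 1 was called lower. The fractions thus differed in markers of other epithelial cells and in some of non-epithelial cells. The part of this in the ribosomal protein values was not tested. In bulk RNA, fewer cells of a type and less RNA per cell cannot be told apart.

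Reads counted on ribosomal protein genes made up a small share of each library. Reads aligned to several places were not counted on any gene, so the share of the mRNAs themselves was not measured. In the negative libraries of mice 1, 2 and 3 the 92 genes held 0.265% (95% exact binomial interval 0.261 to 0.270), 0.186% (0.182 to 0.189) and 0.180% (0.176 to 0.183) of counts in genes. In the positive libraries they held 0.378% (0.373 to 0.383), 0.205% (0.202 to 0.209) and 0.291% (0.287 to 0.295). The intervals cover counting error alone and treat each read as independent. The amplified reads carry no molecular identifiers and 1 molecule can give several reads, so the intervals may be too narrow. The share was higher in the positive library of each mouse, 1.42-fold, 1.11-fold and 1.62-fold, but the groups overlapped, with means of 0.210% ± 0.0478 and 0.291% ± 0.0862 (SD, n = 3 each).

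The size of this difference depended on what the reads were compared with. Mitochondrial ribosomal RNA took 24.6%, 39.1% and 28.6% of counts in genes in the negative libraries, against 19.6%, 17.4% and 18.7% in positive libraries. With TMM factors, which scale each library so that most genes have the same level, the members summed to 2744, 2256 and 1905 CPM in negative against 3676, 1820 and 2618 CPM in positive libraries. The ratio of positive to negative was then 1.34 in mouse 1, 0.807 in mouse 2 and 1.37 in mouse 3. Leaving the mitochondrially encoded genes out of the total gave 1.28, 0.775 and 1.38, so that under both scalings mouse 2 lay on the other side of 1. The plot of both measures by library shows this change of side for mouse 2.

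**Figure D1:**
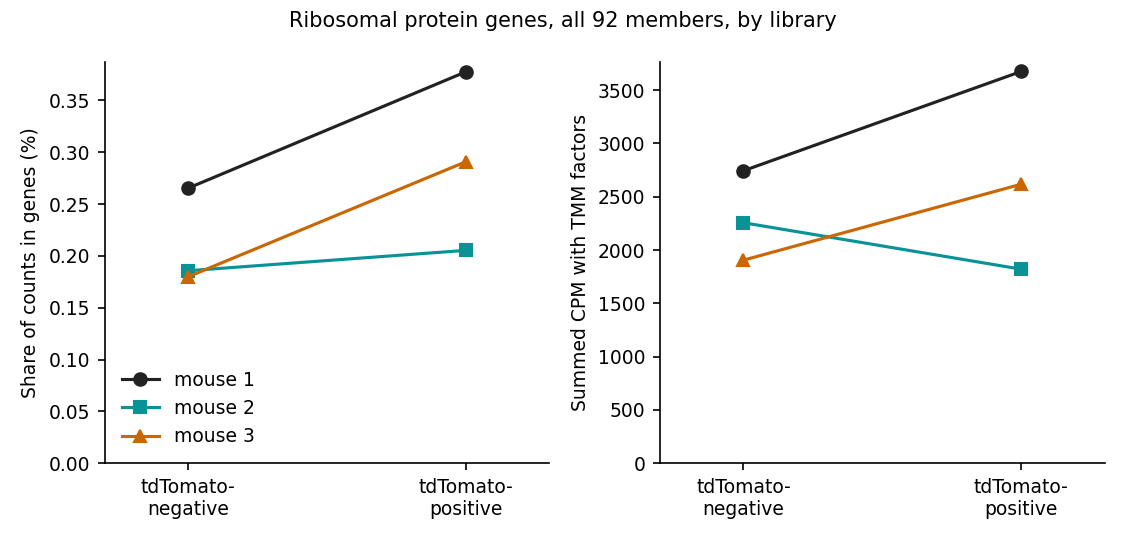
Left, share of counts in genes held by the 92 ribosomal protein genes (%); right, their summed CPM with TMM factors; each point is 1 library and each line joins the tdTomato-negative and tdTomato-positive library of 1 mouse. The share is higher in the positive library of all 3 mice, whereas the TMM-scaled sum is lower in mouse 2 (2256 against 1820 CPM).

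Gene by gene, 1 ribosomal protein mRNA was called different between the fractions in the main fit. The filter on low counts kept 81 of the 92 members (76 core genes, 4 paralogs and Rps19bp1), and edgeR's quasi-likelihood test with the mouse as a block called 1 of them higher at an adjusted p under 0.05, Rps15, and 0 lower. Over all 13175 genes tested 3.15% were called, 1.36% as higher and 1.79% as lower, so the share of members called was no larger than that of genes at large. At an unadjusted p under 0.05 there were 6 of 81 members, all higher, against 15.9% of all genes in either direction and 8.2% as higher. Without the mouse in the model 0 of 81 members were called, as were 0.622% of all genes. DESeq2 with the mouse block called 1 member, against 2.99% of all genes, and limma-voom 3, against 4.13%. With library size alone in place of TMM factors edgeR called 4 members higher, against 4.87% of all genes, and 641 of the 823 genes called were higher, against 179 of 415 with TMM factors.

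Rps15 encodes a protein of the head of the small subunit, close to where tRNAs are decoded (chromosome 10, 80292453 to 80294114, plus strand, GRCm38). The negative libraries of mice 1, 2 and 3 had it at 18.8, 13.1 and 9.75 CPM, against 46.3, 19.5 and 26.0 CPM in the positive libraries. Every positive library lay above every negative one, and the gap between the groups was narrow, since the positive library of mouse 2 was close to the negative library of mouse 1. Its log2 fold change was 1.10 ± 0.279 (SE; adjusted p by edgeR = 0.0384), with log2 ratios of 1.28, 0.56 and 1.39 within the 3 mice. The call was lost without the mouse block (adjusted p by edgeR = 0.292) and with a correction for GC content and length (log2 fold change 0.82, adjusted p by edgeR = 0.144). It was also lost without mouse 1 (adjusted p by edgeR = 0.0999) or mouse 3 (0.486). Without any 1 of the 4 libraries of these mice it was lost too (adjusted p by edgeR = 0.061 to 0.489). Such a fit nearly repeats the one without the mouse, since the block leaves the remaining library of that mouse without a partner. The log2 fold change of Rps15 lay between 0.82 and 1.36 under all 18 alternatives.

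Of the 81 members, 3 had groups that did not overlap, all higher in the positive fraction (3.7%, against 8.29% of all genes), and 0 were lower in this way (against 9.02%). The other two beside Rps15 were Rpl41 and Rps19, the latter chosen after its values were seen. Rpl41 encodes the smallest protein of the ribosome (chromosome 10, 128548114 to 128549305, minus strand). It was at 53.9, 55.5 and 41.9 CPM in negative against 112, 61.9 and 81.1 CPM in positive libraries, with the positive library of mouse 2 again next to the negative ones. Its log2 fold change was 0.72 ± 0.203 (SE; adjusted p by edgeR = 0.0655), which missed the threshold. Rps19, a small subunit protein whose human gene is mutated in Diamond-Blackfan anaemia, was at 4.85, 4.61 and 5.65 CPM in negative against 9.96, 5.7 and 8.89 CPM in positive libraries.

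The acidic stalk of the large subunit, built from Rplp0, Rplp1 and Rplp2, recruits the elongation factors. Rplp1 (chromosome 9, 61913284 to 61914542, minus strand) was at 17.8, 2.31 and 4.87 CPM in negative against 51.7, 2.69 and 13.0 CPM in positive libraries. It differed more between mice than between fractions, being highest in mouse 1 and lowest in mouse 2 in both. Its log2 fold change of 1.19 ± 0.355 (SE; adjusted p by edgeR = 0.0837) had the largest size of any member. Its partner Rplp2 was at 28.3, 14.8 and 12.5 CPM in negative against 58.1, 12.2 and 20.2 CPM in positive libraries (log2 fold change 0.51, adjusted p by edgeR = 0.414), likewise highest in mouse 1. Rplp0, the stalk base to which both bind, differed little, at 28.5, 42.5 and 36.7 CPM in negative against 28.5, 42.7 and 41.0 CPM in positive libraries. Its log2 fold change was 0.06 ± 0.209 (SE; adjusted p by edgeR = 0.926).

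Among the other large subunit members, Rpl29 and Rpl36 had the next largest positive values where the average log2 CPM was 3 or more. Rpl29 was at 11.1, 5.19 and 5.07 CPM in negative against 18.9, 11.5 and 9.53 CPM in positive libraries. It was higher in each of the 3 mice, at a log2 fold change of 0.94 ± 0.354 (SE; adjusted p by edgeR = 0.187), although the groups overlapped. Rpl36 was at 9.31, 3.65 and 3.51 CPM in negative against 18.4, 3.64 and 9.37 CPM in positive libraries, with nearly equal levels in mouse 2 (log2 fold change 0.83, adjusted p by edgeR = 0.35). At that limit the lowest values belonged to Rpl3, which lies near the peptidyl transferase centre, Rpl5, which carries the 5S ribosomal RNA, and Rpl17, at the mouth of the exit tunnel. Rpl3 was at 61.1, 67.4 and 58.7 CPM in negative against 43.7, 36.5 and 84.3 CPM in positive libraries. Its positive library was the lower one in mice 1 and 2 and the higher one in mouse 3, at a log2 fold change of -0.28 ± 0.236 (SE; adjusted p by edgeR = 0.613). Log2 fold changes were -0.22 for Rpl5 and -0.17 for Rpl17 (adjusted p by edgeR = 0.695 and 0.763), and both were below 0 in mouse 2 alone, with log2 ratios of -0.99 and -0.69 there and 0.05 to 0.26 in the other mice.

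In the small subunit, Rps27 and Rps10 followed Rps15 among members with an average log2 CPM of 3 or more. Below that limit lay Rps21 at 0.86 and Rps28 at -0.24 on the log2 scale (adjusted p by edgeR = 0.458 and 0.886), chosen after their values were seen. Rps27, a zinc finger protein (chromosome 3, 90212522 to 90213651, minus strand), was at 43.7, 28.2 and 15.2 CPM in negative against 85.5, 35.4 and 30.0 CPM in positive libraries. It was higher in each mouse, at a log2 fold change of 0.76 ± 0.221 (SE; adjusted p by edgeR = 0.0767). Rps10, a head protein that is ubiquitinated when ribosomes collide, was at 18, 7.88 and 9.16 CPM in negative against 30.1, 9.49 and 16.0 CPM in positive libraries (log2 fold change 0.61, adjusted p by edgeR = 0.349). At the same abundance limit the lowest values were those of Rps3a1, Rps7 and Rps4x, with log2 fold changes of -0.20, -0.16 and -0.13 (adjusted p by edgeR = 0.734, 0.883 and 0.854). In all of them the positive library of mouse 2 stood below every other library: Rps4x was at 54.6 CPM there and at 77.2 to 124 CPM in the rest, and Rps7 at 5.85 against 10.3 to 16.4 CPM.

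The members Rpsa, Rps6 and Rps27a, which were listed by name, showed small differences. Rpsa, also described as a laminin receptor, was at 48.1, 27.3 and 18.1 CPM in negative against 53.7, 31.3 and 26.2 CPM in positive libraries (log2 fold change 0.29, adjusted p by edgeR = 0.565). Rps6, the substrate of the S6 kinases, was at 36.9, 50.3 and 40.9 CPM in negative against 45.9, 41.9 and 53.0 CPM in positive libraries (log2 fold change 0.14, adjusted p by edgeR = 0.796). Rps27a, made as a fusion with ubiquitin, had a log2 fold change of 0.01 ± 0.359 (SE; adjusted p by edgeR = 0.993). Within each of these genes the spread between mice was larger than the difference between the fractions.

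**Figure D2:**
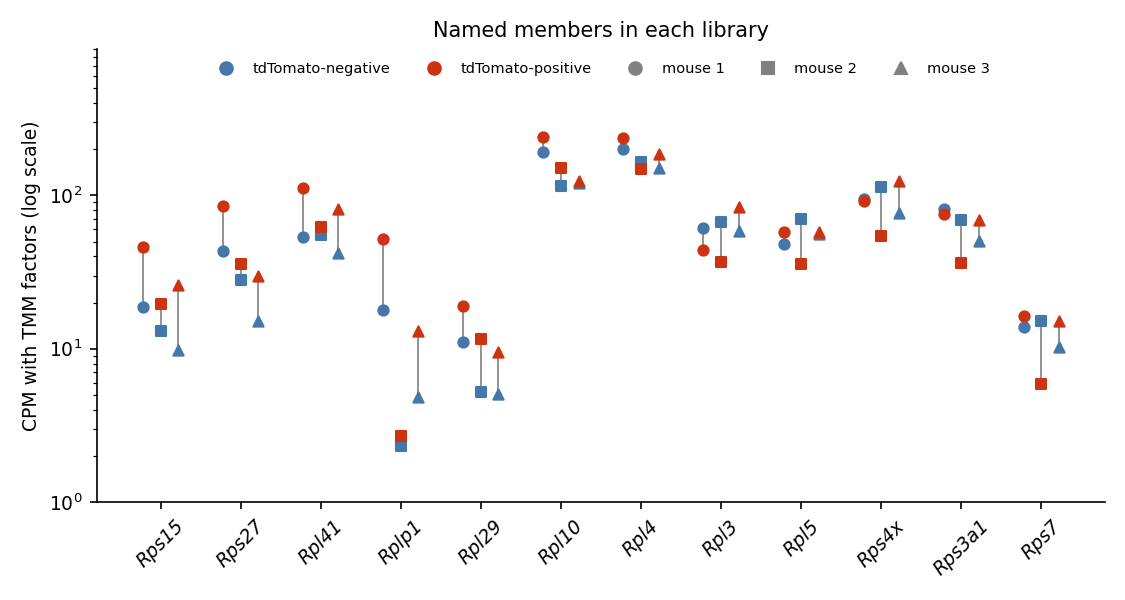
CPM with TMM factors (log axis) of 12 named members in each library; blue is tdTomato-negative, red tdTomato-positive, the marker shape gives the mouse and a line joins the libraries of 1 mouse. Rps15 is the only member shown that was called, with positive libraries at 19.5 to 46.3 CPM and negative ones at 9.75 to 18.8; Rps4x, Rps3a1 and Rps7 have their lowest library in the positive fraction of mouse 2.

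As a family, the members had a median above 0 in mice 1 and 3 and below 0 in mouse 2. The median log2 fold change of the 81 members was 0.21, against 0.00 over all genes tested, and 65 of 81 (80.2%) were above 0, against 50% of all genes. In mouse 1 the median log2 ratio of members was 0.51 and 69 of 81 were above 0 (49.4% of all genes). In mouse 3 it was 0.52 with 74 of 81 above 0 (51.5% of all genes). In mouse 2 it was -0.32, with 19 of 81 above 0 (51.4% of all genes). Those higher in all 3 mice numbered 16 of 81 (19.8%, the same as the 19.8% of all genes), among them Rps15, Rpl41, Rps27, Rplp1, Rpl29, Rps10, Rpl10, Rpsa and Rplp0. None of the 81 was lower in all 3 mice, against 18.8% of all genes. Members are not independent replicates of a condition, and the values of 1 mouse share both of its libraries, so these counts describe the family and carry no p.

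The family median rested on which mice were included. Without mouse 2 it was 0.48, and edgeR called 5 members higher: Rps15, Rpl41, Rplp1, Rps27 and Rpl39, the last chosen after its values were seen; of all genes tested in that fit, 2.83% were called and 1.23% as higher. Without mouse 1 the median was 0.04 and without mouse 3 it was 0.09, with 0 members called in either case, where 4.76% and 0.439% of all genes were called. Rpl39, which lines the exit tunnel, was at 8.92, 14.2 and 8.19 CPM in negative against 29.7, 6.33 and 19.2 CPM in positive libraries. Mouse 2 thus went the other way for this gene, and in the fit with all 3 mice its log2 fold change was 0.65 ± 0.465 (SE; adjusted p by edgeR = 0.534). In the TMM-scaled sums, the positive library of mouse 2 had the lowest value of the 6, and its negative library the highest share of mitochondrial ribosomal RNA. The part of these library features in the result was not tested.

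**Figure D3:**
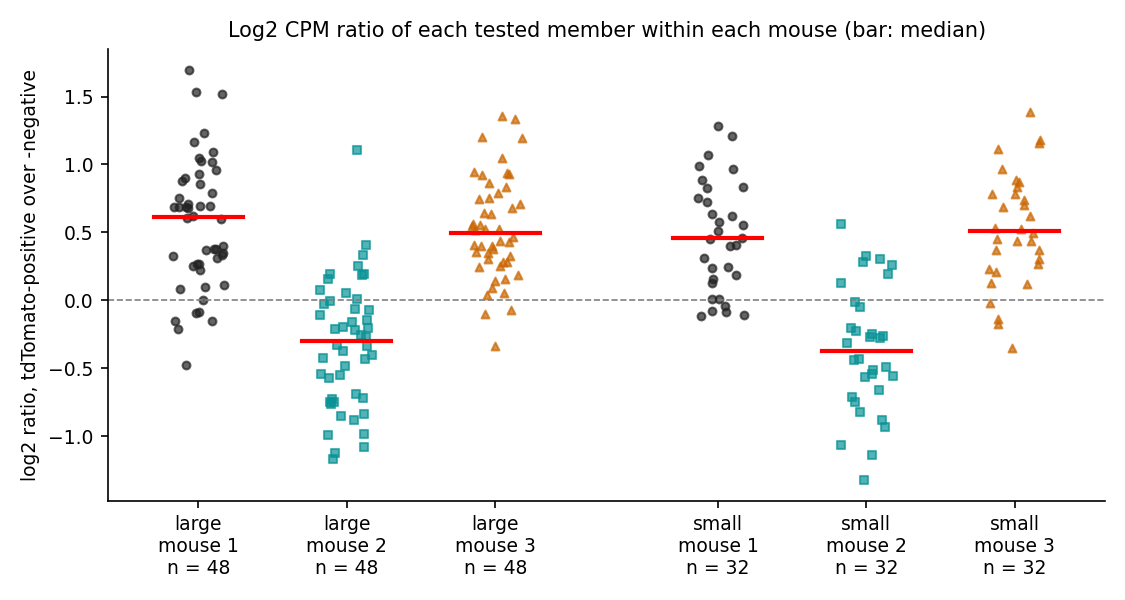
Log2 ratio of CPM, tdTomato-positive over tdTomato-negative, within each mouse for the tested large subunit (n = 48) and small subunit (n = 32) members; each point is 1 gene and the red bar is the median. Medians are 0.61, -0.30 and 0.49 for the large and 0.46, -0.37 and 0.51 for the small subunit in mice 1, 2 and 3.

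The medians of large and small subunit genes had the same sign in each mouse. The median log2 fold change was 0.24 over 48 large subunit members, with 40 above 0, and 0.14 over 32 small subunit members, with 24 above 0. The order turned among members with at least 50% unique windows, where the medians were 0.16 for the large and 0.19 for the small subunit, an alternative chosen after seeing the data. In mice 1, 2 and 3 the medians were 0.61, -0.30 and 0.49 for the large and 0.46, -0.37 and 0.51 for the small subunit, so mouse 2 differed from the other mice by more than the subunits differed within any mouse. Per library, reads of large subunit genes exceeded those of small subunit genes 2.04-fold, 1.83-fold and 2.09-fold in the negative and 2.12-fold, 2.09-fold and 1.95-fold in the positive fraction. The mean ratios, 1.98 ± 0.137 and 2.05 ± 0.0942 (SD, n = 3 each), differed by less than the spread between mice. The positive library had the higher ratio in mice 1 and 2 and the lower one in mouse 3.

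To compare levels between genes, reads were divided by mRNA length (RPKM, here the TMM-scaled CPM per kilobase of mRNA). Over the 77 core genes the mean RPKM of the 6 libraries had a median of 27.9, with quartiles at 17.5 and 50.9 RPKM. The median level was 29.3 RPKM for the 46 large and 26.9 RPKM for the 31 small subunit genes. The proteins are needed in nearly equal numbers, but the whole range ran from 1.04 RPKM for Rpl24 to 197 RPKM for Rpl10. Of the 77 core genes, 70 were at 10 RPKM or more. Those below included Rps20 at 7.39 and Rps15a at 8.17 RPKM, whose annotated mRNAs are long forms of 3706 and 5130 bases. Before division by length they were at 20.4 to 36.5 and 26.3 to 72.1 CPM. The part of the annotated length in these levels was not tested. Counted in reads, the 10 most abundant members held 35.6% to 37.6% of all member reads in negative and 33.3% to 38.0% in positive libraries. Within single mice, the share of a gene in this group could differ between the fractions. Rps4x had 595 of 11747 member reads in the negative and 345 of 11504 in the positive library of mouse 2, and Rpl41 had 278 of 14144 and 664 of 21768 in mouse 1. These are examples from 1 mouse per gene, and neither gene was called in the main fit.

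Rpl10, which is added late to the large subunit and allows the subunits to join (chromosome X, 74270812 to 74273135, plus strand), had the highest level. It was at 239, 143 and 152 RPKM in negative against 300, 190 and 156 RPKM in positive libraries. Rpl41 followed with a mean of 155 RPKM and a range of 95.9 to 257 RPKM, and Rpl4, part of the exit tunnel wall (chromosome 9, 64173375 to 64178666, plus strand), with 118 RPKM and a range of 97.0 to 153 RPKM. These ranges overlap, so the order of the leading genes is not fixed within the spread of the libraries. In counts, Rpl4 led, with 780 to 1395 reads per library against 596 to 1418 for Rpl10, and neither was called (log2 fold changes 0.12 and 0.26, adjusted p by edgeR = 0.76 and 0.433). In the small subunit the highest levels were those of Rps27 at 115, Rps4x at 95.3 and Rps25 at 92.3 RPKM, with ranges of 44.1 to 248, 56.0 to 128 and 54.4 to 138 RPKM. Rps25 is needed for translation from some internal ribosome entry sites.

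At the other end stood core genes with almost no reads. Rpl24 (chromosome 16, 55966275 to 55971435, plus strand) had 5, 3 and 3 reads in negative against 4, 4 and 5 reads in positive libraries and was the single core gene that the filter removed. Rpl13a was at a mean of 2.93 RPKM, with 6 to 24 reads per library, and Rpl35 at 3.76 RPKM, with 10 to 44 reads. These were chosen after their values were seen. In each of these genes part of the sequence is not its own. The share of 50-base mRNA windows found in no other annotated gene was 18.3% for Rpl24, 42.6% for Rpl13a and 4.91% for Rpl35. Of their exon bases, 47.0%, 35.4% and 66.2% overlap another gene.

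Shared sequence is a feature of the whole family, and it bears on what the counts hold. Over the core genes the median share of unique 50-base windows was 40%, the lowest was 1.35% for Rps27, and 51 of the 77 genes were under 50%. For the 77 genes of mitochondrial ribosomal proteins the median was 97%. With 100-base windows the core median was 55%. Pseudogene rows named after 57 of the 77 core genes were in the files, and exons of 37 core genes overlapped another gene. Reads aligned to several places have a row of their own, which held 10.2% ± 0.548 of all counted rows in negative and 10.3% ± 1.91 in positive libraries (SD, n = 3 each), so reads common to a gene and its copies may be missing from both. The levels of single members and the share of counts held by the family are therefore uncertain. How the reads of overlapping or antisense genes were divided cannot be told, since the strand setting is not given in the sources used here.

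Few reads were counted on rows whose symbol marks them as a ribosomal protein pseudogene by -ps. These 274 rows, of which 132 had a read, together held 2.98%, 3.29% and 4.25% as many reads as the members in negative libraries. In positive libraries they held 1.73%, 3.8% and 2.31%. Pseudogenes under other symbols were not summed, so these values do not cover all pseudogenes. Across core and paralog members, the share of unique windows had a Pearson correlation of -0.30 with log2 RPKM and of 0.05 with the log2 fold change (n = 80 genes, which share their libraries). The 28 tested members with at least 50% unique windows had a median log2 fold change of 0.17 and the 52 others one of 0.22. Among the core genes, Rps27 had the smallest unique share and the highest level per length of the small subunit. The part of shared reads in these levels was not tested.

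**Figure D4:**
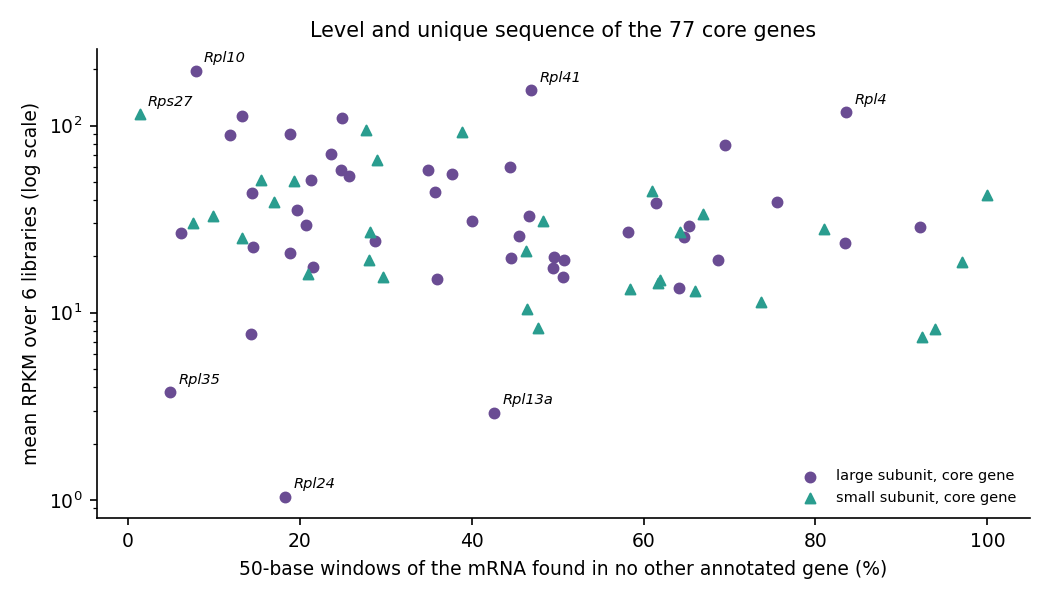
Mean RPKM of the 6 libraries (log axis) against the share of 50-base mRNA windows found in no other annotated gene (%), for the 77 core genes; circles are large and triangles small subunit genes. Rps27 at 1.35% and Rpl10 at 7.87% unique windows are among the highest levels, while Rpl24, Rpl13a and Rpl35 lie lowest.

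Members differed in one further property that went along with their fold changes, the length of the mRNA. Across 80 members, log2 mRNA length and log2 fold change had a Pearson correlation of -0.34 and a Spearman correlation of -0.33, against -0.04 and -0.05 over 12764 genes tested; the points share their libraries and no test was made. The median log2 fold change was 0.30 for 31 members of up to 600 bases, 0.24 for 30 members of over 600 and up to 1000 bases and 0.09 for 19 longer ones. In other genes of the same lengths the medians were -0.15, 0.08 and 0.00. The part of length in the fold changes was not tested for the family; the correction for GC content and length gave a median of 0.18 for the members and 0.09 for all genes. Within mouse 1 the members' medians were 0.76, 0.39 and 0.26 and within mouse 3 they were 0.74, 0.43 and 0.38 from the shortest to the longest bin. In mouse 2 they were -0.32, -0.30 and -0.34, with no order by length. Lengths are those of the annotated principal mRNA, which for Rps15a and Rps20, chosen after their values were seen, is a long form of 5130 and 3706 bases.

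**Figure D5:**
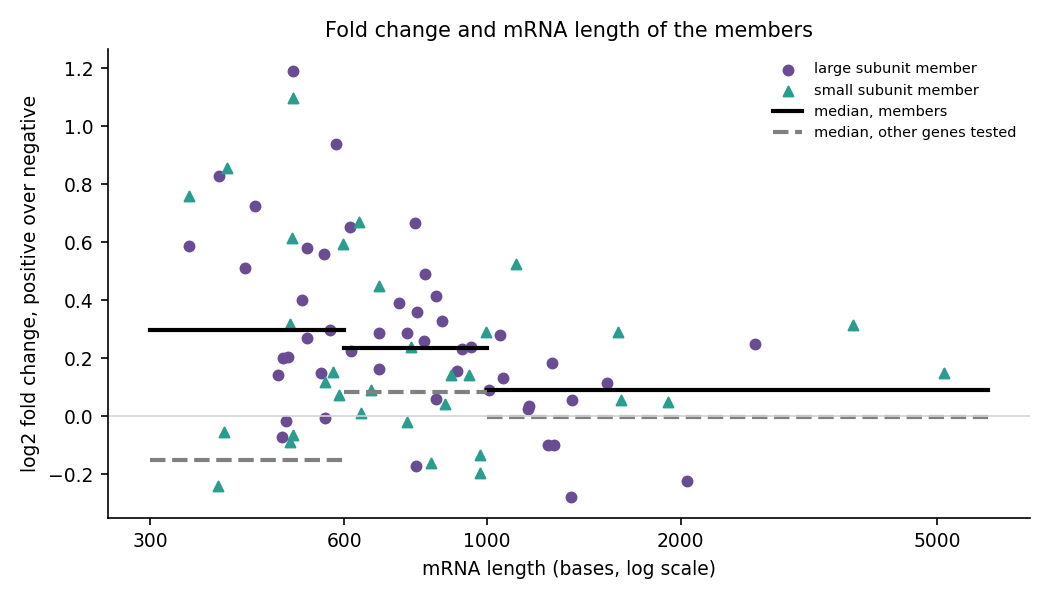
Log2 fold change (tdTomato-positive over tdTomato-negative) of each tested member against its mRNA length in bases (log axis); circles are large and triangles small subunit members, solid bars are member medians and dashed bars medians of the other genes tested in 3 length bins. Member medians are 0.30, 0.24 and 0.09 from short to long, and those of other genes -0.15, 0.08 and 0.00.

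Of the paralogs, 4 were counted well enough to be tested, and none was called. Rpl22l1, a paralog of the RNA-binding protein Rpl22, had 49, 122 and 60 reads in negative against 167, 74 and 70 in positive libraries, where Rpl22 had 117, 85 and 59 and then 205, 60 and 105. Rpl22l1 outnumbered its parent in both libraries of mouse 2 and, by 1 read, in the negative library of mouse 3. Rpl36al, the autosomal paralog of the X-linked Rpl36a, had 55, 53 and 43 reads against 55, 54 and 34 of its parent in the negative libraries. In the positive libraries it had 130, 58 and 93 reads against 137, 28 and 61. Rps27l, known as a target of p53, had 60, 73 and 50 reads against 225, 147 and 78 of Rps27 in the negative libraries. In the positive ones it had 95, 39 and 84 against 506, 224 and 189, so its reads per read of Rps27 were lower in the positive library of all 3 mice. Rpl7l1 was minor, at 13 to 42 reads per library against 155 to 285 of Rpl7. Log2 fold changes were 0.15 for Rpl22l1, 0.58 for Rpl36al, 0.25 for Rpl7l1 and -0.07 for Rps27l (adjusted p by edgeR = 0.897, 0.447, 0.859 and 0.955). Those of the parents were 0.14 for Rpl22, 0.20 for Rpl36a and 0.04 for Rpl7 (adjusted p by edgeR = 0.874, 0.869 and 0.964). The sums of a paralog and its parent cannot correct for reads that match both, which were not counted on either.

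The remaining members were at or near the floor. Rpl10l and Rpl39l, known from the testis, and Rpl3l, known from muscle, had 0 reads in all 6 libraries, which allows each up to 3 counts per library. Rps12l1 also had 0 reads, but it has no unique window and its exon lies wholly within another gene, so this count sets no limit on its level. Rpl6l had up to 2 reads per library, Rps3a2 up to 4, and Rpl37rt, Rps27rt and Rps3a3 up to 8. Rps4l, annotated as a transcribed processed pseudogene and chosen after its values were seen, stood out among these. It had 4, 3 and 1 reads in negative against 42, 0 and 11 in positive libraries. Its reads came mainly from the positive library of mouse 1, and the filter left it untested. Rps19bp1, which the rule takes in by its symbol, was at 1.75 to 3.69 CPM in negative and 2.20 to 6.83 CPM in positive libraries (log2 fold change 0.39, adjusted p by edgeR = 0.823).

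In the other parts of the translation machinery edgeR with the mouse block called 0 genes, as did edgeR without the block and DESeq2 with it, while limma-voom called Eif5a and Max. At an unadjusted p under 0.05 in edgeR with the block there were 2 of 6 elongation factors, 0 of 12 other TOP mRNAs, 3 of 25 initiation factors, 1 of 39 biogenesis genes, 1 of 6 small nucleolar RNA hosts, 2 of 13 regulators and 5 of 68 mitochondrial ribosomal protein genes (15.9% of all genes). Of the ribosomal genes outside the symbol rule, Fau, which encodes a ubiquitin-like protein fused to a small subunit protein, was at 0.64 on the log2 scale (adjusted p by edgeR = 0.498), and Rack1, a scaffold on the small subunit, one of 0.26 (adjusted p by edgeR = 0.568). All 6 elongation factors were tested and edgeR called 0, with a median of 0.16. Eif5a, which relieves stalls at proline stretches, was at 22.1, 23.6 and 25.5 CPM in negative against 40.2, 50.5 and 37.3 CPM in positive libraries. Its groups did not overlap, and its log2 fold change was 0.83 ± 0.226 (SE; adjusted p by edgeR = 0.0552). Eif5a was called by limma-voom (adjusted p = 0.0383), and by edgeR with library size only (adjusted p = 0.0106) or no filter (0.026). Eef2, which moves the ribosome along the mRNA, had a log2 fold change of 0.33 and Eef1g one of -0.36 (adjusted p by edgeR = 0.31 and 0.494).

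The 12 other mRNAs described as carrying a TOP motif had a median log2 fold change of -0.08, with 0 called. Their medians in mice 1, 2 and 3 were 0.17, -0.40 and 0.14, and Eif3h had the smallest p among them, at a log2 fold change of -0.63 (adjusted p by edgeR = 0.315). Over 25 initiation factors the median was 0.05 and 0 were called; Eif3a was at -0.44 and lower in all 3 mice (adjusted p by edgeR = 0.151, and 0.0476 without the negative library of mouse 1), and Eif4a1, the helicase that unwinds the start of mRNAs, at 0.44 and higher in all 3 (adjusted p by edgeR = 0.212, and 0.0449 with library size only). Of 40 ribosome biogenesis genes 39 were tested and 0 called, with a median of -0.05 and 15 above 0. Polr1a, the large subunit of RNA polymerase I, was at 0.59 and Ncl, the nucleolar protein nucleolin, at -0.27 (adjusted p by edgeR = 0.249 and 0.384). Of 11 hosts of small nucleolar RNAs, 6 were tested and 0 called, with a median of -0.30. Snhg17 was at 1.14, with 3.49, 5.95 and 4.29 CPM in negative against 17.6, 10.4 and 5.24 CPM in positive libraries (adjusted p by edgeR = 0.217), and Gas5, a host whose RNA is itself of the TOP type, at -0.29 (adjusted p by edgeR = 0.483).

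Among 15 genes of the mTOR, LARP1 and MYC regulators 13 were tested and edgeR called 0, with a median of 0.15. Max, the partner of MYC, was at 29.5, 35.3 and 27.5 CPM in negative against 63.5, 43.2 and 53.7 CPM in positive libraries. Those groups did not overlap, and the log2 fold change was 0.79 ± 0.221 (SE; adjusted p by edgeR = 0.0651). Max was called in 6 of 18 alternatives, among them limma-voom (adjusted p = 0.042) and edgeR with library size only (adjusted p = 0.00813) or no filter (0.02). The others were edgeR without mouse 2 (adjusted p = 0.0141) and without either of its libraries (0.0128 and 0.0246). Fits without a single library of mouse 2 nearly repeat the one without the mouse. Rps6kb1, the S6 kinase, was at -0.43 and lower in all 3 mice (adjusted p by edgeR = 0.238), and Eif4ebp2, a repressor of cap-dependent initiation, at 0.51 and higher in all 3 (adjusted p by edgeR = 0.323).

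The mitochondrial ribosome, whose proteins are also encoded in the nucleus, served as a comparison family. Of its 77 genes 68 were tested and 0 called, with a median log2 fold change of 0.04 and 37 above 0. The medians in mice 1, 2 and 3 were 0.03, -0.21 and 0.31, against 0.51, -0.32 and 0.52 in the cytosolic family, so mouse 2 was again the one below 0. Their share of counts in genes was 0.0627% ± 0.00619 in negative and 0.0809% ± 0.00367 in positive libraries (SD, n = 3 each), and the groups did not overlap. With mitochondrially encoded genes left out of the total the shares were 0.102%, 0.108% and 0.0848% against 0.110%, 0.0954% and 0.103%, so that the groups overlapped and mouse 2 had the lower share in its positive library. Mrps9, Mrpl9 and Mrpl36 had the smallest p values, at log2 fold changes of -0.73, 0.63 and 0.84 (adjusted p by edgeR = 0.206, 0.208 and 0.244). With library size only, Mrpl9 had an adjusted p by edgeR of 0.0499. No test of a difference between the families was made.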

How the data were processed

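Sorted tdTomato-negative and tdTomato-positive lung cells of 3 mice gave 6 RNA-seq libraries. The authors deposited raw counts, 1 file per library, with a count of reads for each gene symbol. Per the submitters' processing notes, reads were handled with cutadapt 1.7.1, STAR 2.4.2a, FastQC, DESeq2 and HTSeq on mm10 or GRCm38.p4; the version and strand setting of HTSeq are not given in the sources used here. The HTSeq summary rows entered neither library sizes nor tests. Reads in no gene were 45.7% ± 4.31 of all counted rows in negative and 45.9% ± 3.05 in positive libraries, and reads that fitted more than 1 gene 1.44% ± 0.220 and 1.94% ± 0.0478 (SD, n = 3 each).

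Log2 fold changes and two-sided p-values were computed over all genes with edgeR 4.0.16 (R 4.3.3; quasi-likelihood test, TMM factors, robust dispersions, filterByExpr with a count minimum of 10) and adjusted by Benjamini-Hochberg over 13175 genes; adjusted p under 0.05 was called. The labels give the same individual for both fractions of a mouse, so the libraries are paired and the mouse was a block. Log2 ratios within a mouse used a prior count of 2. Alternatives were no block, other scalings and filters, DESeq2 1.42.0, limma-voom (limma 3.58.1), a GC and length correction (mgcv 1.9.3) and leaving out each library or mouse. With the mouse as a block, leaving out a single library nearly repeats leaving out its mouse, so these alternatives are not separate. The script was tested on simulated data.

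Positions, mRNA lengths (12764 of the genes tested, all 92 members) and unique windows came from GENCODE M21 on GRCm38, and start-site sequences from RefSeq. The members, gene lists and tests were chosen with earlier results of these data known. Named members were those called, the 3 with the largest positive and negative log2 fold change in each subunit (average log2 CPM of at least 3), the 3 with the highest level per length in each subunit, Rplp0, Rplp1, Rplp2, Rpsa, Rps6, Rps27a, tested paralogs with their parents, and up to 3 genes with the smallest p from each other list.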

Additional observations from a re-analysis of the deposited data

How the results depend on the processing

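The number of ribosomal protein genes called higher depended on the settings, while 0 were called lower under all 18 alternatives. Against 1 in the model with the mouse as replicate block, it was 0 with no replicate block, 4 with library size only or with no filter on low counts, 3 by limma-voom, 0 with the GC and length correction and 0 to 5 when single libraries or mice were left out; the 4 were Rps15, Rpl41, Rplp1 and Rps27. Of all 13175 genes tested in the main model, 415 (3.15%) were called, 179 of them (1.36%) higher. With no replicate block 82 (0.622%) were called, 6 higher, and with library size only 823 (6.25%), 641 of them (4.87%) higher. With no filter 28108 genes were tested and 677 (2.41%) called, 327 of them (1.16%) higher. By limma-voom 544 (4.13%) were called, 273 higher, and with the GC and length correction 305 (2.31%). When single libraries or mice were left out, 59 to 668 genes were called. Library size only moved the median over all genes to 0.26 on the log2 scale, with that of the members at 0.45. The members' median was 0.04 to 0.48 over 20 alternatives, lowest without mouse 1. Rps15 stayed above 0 under all 18 alternatives. The members' share of counts in genes in the negative libraries was 0.327% with mitochondrially encoded genes left out of the total. With members that have no -ps row named after them it was 0.0638% in negative and 0.0873% in positive libraries. The large to small ratio of these members was 1.84 in negative and 2.09 in positive libraries, against 1.98 and 2.05 for all members. The 2 alternatives on unique windows and on paralogs were chosen after seeing the data.

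The number of animals (3) limits the precision, and a count of a few reads per library (Rpl24) cannot show a difference at this depth. Reads that a member shares with its copies bear on the levels and shares given. So do the markers of other cells that differed between the fractions, and the part of both was not tested.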
